A study of Mus musculus with 4 samples.

Results

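Integrins and laminins are the genes by which a cell of the vessel wall holds on to its matrix. An integrin is a pair of membrane proteins, 1 alpha and 1 beta chain, and the pairing decides which matrix protein is bound. A laminin is a trimer of an alpha, a beta and a gamma chain, secreted into the basement membrane, the thin sheet that wraps each smooth muscle cell and underlies the endothelium. The genes described here are the protein-coding integrin chains (Itga and Itgb genes) and laminin chains (Lama, Lamb and Lamc genes), chosen by symbol, without the similarly named Itgb1bp1, Itgb1bp2, Itgb3bp and Itgbl1, which are no chains. They were 31 of the 32948 genes in the table, 21 integrin and 10 laminin chains. A further 7 annotated chains, Itgae, Itgal, Itgax, Itgb2, Itgb2l, Itgb7 and Lama1, were not analysed here.

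The RNA came from cells of the aortic arch and the ascending aorta, in mice with the alleles Wnt1-Cre and Rosa26-mTmG. With these alleles a cell is red (tdTomato) unless it, or an ancestor of it, had active Wnt1-Cre, a driver of the neural crest, and then it is green (GFP); neural crest cells form part of the arch muscle. Tissue of 1 female sample and tissue pooled from 2 male samples gave 1 suspension each, and each was sorted by fluorescence alone into GFP and tdTomato cells. The 4 libraries, female GFP, male GFP, female tdTomato and male tdTomato, thus share both alleles and have no replicate of a sex and colour. Neither age nor strain background is given here. Where 2 values of a colour stand together below, the female one is first.

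Depth was 13678806 (female) and 10094326 (male) estimated counts for the GFP sorts, against 13911281 and 12837282 for the tdTomato sorts. Levels are CPM, counts scaled to a common library size, after TMM scaling for RNA composition, and a count of 0 allowed a level of up to 0.238 and 0.319 CPM in the GFP libraries and 0.201 and 0.216 CPM in the tdTomato libraries (3 counts, counting error only). The labelled cell type was smooth muscle, and all 8 smooth muscle markers were detected in every library, with summed levels of 16573 and 13976 CPM in GFP and 12678 and 12069 CPM in tdTomato. The GFP libraries missed more genes. Of 8552 tested genes at a mean of at least 10 CPM, 9.39% and 23.4% had at most 3 counts in the GFP sorts, against 1.10% and 1.64% in the tdTomato sorts. Libraries here are pools of cells, so fewer cells of a type and less RNA per cell cannot be told apart.

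The most abundant chain was Itga8 in all 4 libraries. Its protein pairs with the Itgb1 chain to bind fibronectin, tenascin and nephronectin, and smooth muscle is one of its known sites. Itga8 measured 1049.9 CPM (female) and 2243 CPM (male) in the GFP sorts, against 1870.1 CPM (female) and 1720.2 CPM (male) in the tdTomato sorts. The GFP libraries thus held both its lowest and its highest value, so that the log2 ratio of GFP over tdTomato averaged -0.22 ± 0.86 (SD over 2 pairs). To compare chains with each other, CPM were divided by the length in kb of the longest coding transcript. On this length-scaled level Itga8 made up 57.7% and 76.95% of all integrin alpha chains in GFP and 77.05% and 78.1% in tdTomato, and it stood above 96.1% to 98.7% of the tested genes. E030013I19Rik overlaps Itga8 on the other strand in the reference annotation, at 220.2 and 240.5 CPM in the GFP sorts, against 226 and 280.4 CPM in the tdTomato sorts, and their shared reads cannot be told apart.

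Itgb1, the common beta chain that pairs with most alpha chains, was the leading beta chain by length-scaled level. It took 83.8% and 64.1% of the beta chains in GFP and 76.1% and 67.7% in tdTomato. Itgb1 measured 649.9 CPM (female) and 597 CPM (male) in the GFP sorts, against 466 CPM (female) and 463 CPM (male) in the tdTomato sorts. The colours did not overlap, and the female pair differed by 1.39-fold (95% counting interval 1.35 to 1.44) and the male pair by 1.29-fold (1.24 to 1.34), GFP being higher. Itga1, the alpha chain of a receptor for collagen IV and laminin, measured 392 CPM (female) and 332 CPM (male) in the GFP sorts, against 251 CPM (female) and 237 CPM (male) in the tdTomato sorts. This chain too was higher in both GFP libraries, by 1.56-fold (1.497 to 1.63) and 1.40-fold (1.33 to 1.47). Itga1 and Itgb1 were the 2 tested members less than 2-fold apart between the sexes in both colours (19.9% of all tested genes). Markers of smooth muscle were also higher in GFP by their sums, as given above, with median log2 ratios of 0.24 (female pair) and 0.25 (male pair). Not every marker was higher. Des measured 4.67 and 5.96 CPM in the GFP sorts, against 19.5 and 21.8 CPM in the tdTomato sorts. Tagln and Cnn1 were lower in GFP in the male pair alone, and Smtn in the female pair alone. The part of smooth muscle markers in the values of Itga1 and Itgb1 was not tested. The ratios of Itga1 and Itgb1 kept their sign with DESeq2's size factors and with library totals.

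The sequences before the starts of Itga8, Itgb1 and Itga1 are shown to compare them with those of the chains that were low in GFP, further on. RefSeq windows (build GRCm38.p6) of the 250 bases before each start were found for 21 members, 24 windows in all. Capitals mark GGGCGG, the GC box bound by SP1, and the CArG box, the site of serum response factor, which drives many smooth muscle genes. Both strands were searched, and these motifs and TATAAA overlapped each other in no window shown.
Itga8, chr2:12301945-12302194, minus strand: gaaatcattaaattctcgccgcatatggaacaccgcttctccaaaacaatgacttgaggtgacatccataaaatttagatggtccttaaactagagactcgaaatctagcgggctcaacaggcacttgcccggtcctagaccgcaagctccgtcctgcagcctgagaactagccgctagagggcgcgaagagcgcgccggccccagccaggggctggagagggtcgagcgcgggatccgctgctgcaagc
Itgb1, chr8:128685404-128685653, plus strand: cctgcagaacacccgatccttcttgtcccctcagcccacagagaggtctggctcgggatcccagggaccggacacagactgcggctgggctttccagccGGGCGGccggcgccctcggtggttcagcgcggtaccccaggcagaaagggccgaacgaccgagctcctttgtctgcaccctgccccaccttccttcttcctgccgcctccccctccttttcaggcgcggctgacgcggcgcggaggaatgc
Itga1, chr13:115101965-115102214, minus strand: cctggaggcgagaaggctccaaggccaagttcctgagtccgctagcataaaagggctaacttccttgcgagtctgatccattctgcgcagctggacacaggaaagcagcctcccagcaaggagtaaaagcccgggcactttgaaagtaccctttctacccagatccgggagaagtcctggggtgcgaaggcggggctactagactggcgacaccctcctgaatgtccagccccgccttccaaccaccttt
None of these 3 windows held a CArG box, and the Itgb1 window held 1 GC box. A window without a match says only that these letters are not in it.

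The other receptors of abundant matrix proteins followed. Itga7, the laminin receptor chain of muscle, measured 107 CPM (female) and 82.0 CPM (male) in the GFP sorts, against 76.4 CPM (female) and 35.8 CPM (male) in the tdTomato sorts. Both GFP values lay above both tdTomato values, by 1.40-fold (1.30 to 1.52) in the female pair and 2.29-fold (2.05 to 2.57) in the male pair. Itgav, which pairs with several beta chains and binds the RGD motif of vitronectin and fibronectin, measured 237 CPM (female) and 114 CPM (male) in the GFP sorts, against 142 CPM (female) and 179.6 CPM (male) in the tdTomato sorts. Its GFP values lay on either side of both tdTomato values. Its known partner Itgb5, a vitronectin receptor chain, measured 88.1 and 282 CPM in the GFP sorts, against 97.5 and 151 CPM in the tdTomato sorts, so that male GFP stood highest. The fibronectin receptor chain Itga5 measured 58.8 and 26.9 CPM in the GFP sorts, against 47.3 and 13.5 CPM in the tdTomato sorts. It was higher in GFP within each suspension, but the colours overlapped across them.

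Itga9, which binds tenascin and VCAM1, had a level of 73.0 CPM (female) and 200.03 CPM (male) in the GFP sorts, against 72.6 CPM (female) and 76.0 CPM (male) in the tdTomato sorts. Only the male GFP library stood apart, by 2.63-fold (2.44 to 2.84) over its tdTomato partner. Itga3, a laminin receptor chain, measured 25.7 and 19.7 CPM in the GFP sorts, against 9.10 and 31.5 CPM in the tdTomato sorts, and Itga6, another, measured 6.65 and 24.2 CPM in the GFP sorts, against 12.6 and 12.8 CPM in the tdTomato sorts. Both chains had opposite signs in the pairs, Itga3 with log2 ratios of 1.48 and -0.67 and Itga6 with -0.90 and 0.91. Itga10, a collagen receptor chain best known from cartilage, measured 18.4 CPM (female) and had 0 counts (male) in the GFP sorts, against 14.1 and 9.42 CPM in the tdTomato sorts. The female pair differed by 1.30-fold with GFP higher (1.08 to 1.58), and the male pair by at least 29.5-fold with GFP lower, a bound set by 3 counts.

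**Figure D1:**
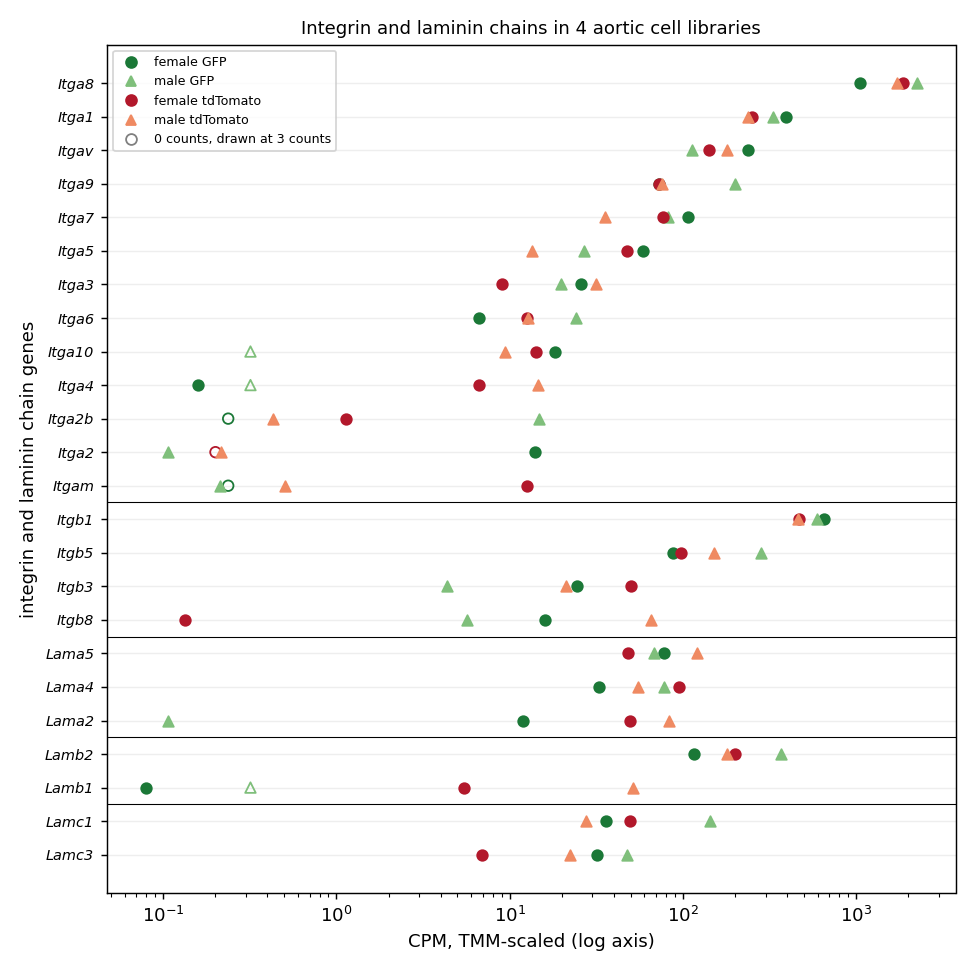
TMM-scaled CPM (log axis) of the 24 chains that reached 10 CPM in at least 1 library, by chain class, with 1 point for each library and open points for 0 counts drawn at 3 counts. Itga8 lies rightmost, between 1049.9 and 2243 CPM, while the GFP points of Itga4, Lama2 and Lamb1 lie left of both tdTomato points.

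Among the laminins, Lamb2, known from basement membranes of muscle, kidney and arteries, was the leading beta chain. By length-scaled level it made up 99.85% and 99.97% of the beta chains in GFP and 97.4% and 78.1% in tdTomato. Lamb2 measured 116 CPM (female) and 370.3 CPM (male) in the GFP sorts, against 200.4 CPM (female) and 181 CPM (male) in the tdTomato sorts. The GFP libraries were again the lowest and the highest. The alpha chains Lama4 and Lama5 are those of vessel wall basement membranes. Lama4 measured 32.7 and 78.0 CPM in the GFP sorts, against 95.2 and 55.0 CPM in the tdTomato sorts, 2.91-fold lower in female GFP than in its partner (2.61 to 3.26) and 1.42-fold higher in male GFP (1.28 to 1.57). Lama5 had the opposite signs, at 77.9 and 67.9 CPM in the GFP sorts, against 48.3 and 121 CPM in the tdTomato sorts, with log2 ratios of 0.69 and -0.83.

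Among the gamma chains, Lamc1 is part of most laminins and Lamc3 is less common. Lamc1 measured 36.0 CPM (female) and 143 CPM (male) in the GFP sorts, against 49.8 CPM (female) and 27.6 CPM (male) in the tdTomato sorts. Female GFP was 1.38-fold lower than its partner (1.23 to 1.56), and male GFP was 5.19-fold higher (4.63 to 5.83). Lamc3 measured 32.2 CPM (female) and 47.9 CPM (male) in the GFP sorts, against 6.96 CPM (female) and 22.3 CPM (male) in the tdTomato sorts. Both GFP values were above both tdTomato values, with folds of 4.62 (female pair, 3.72 to 5.79) and 2.15 (male pair, 1.85 to 2.49). Its log2 ratio averaged 1.64 ± 0.77 (SD over 2 pairs), and with library totals in place of TMM the male pair had 0.88, under 2-fold. By length-scaled level Lamc3 made up 53.4% and 30.2% of the gamma chains in GFP and 13.5% and 50.95% in tdTomato. Its share of the class thus overlapped between the colours while its level did not.

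**Figure D2:**
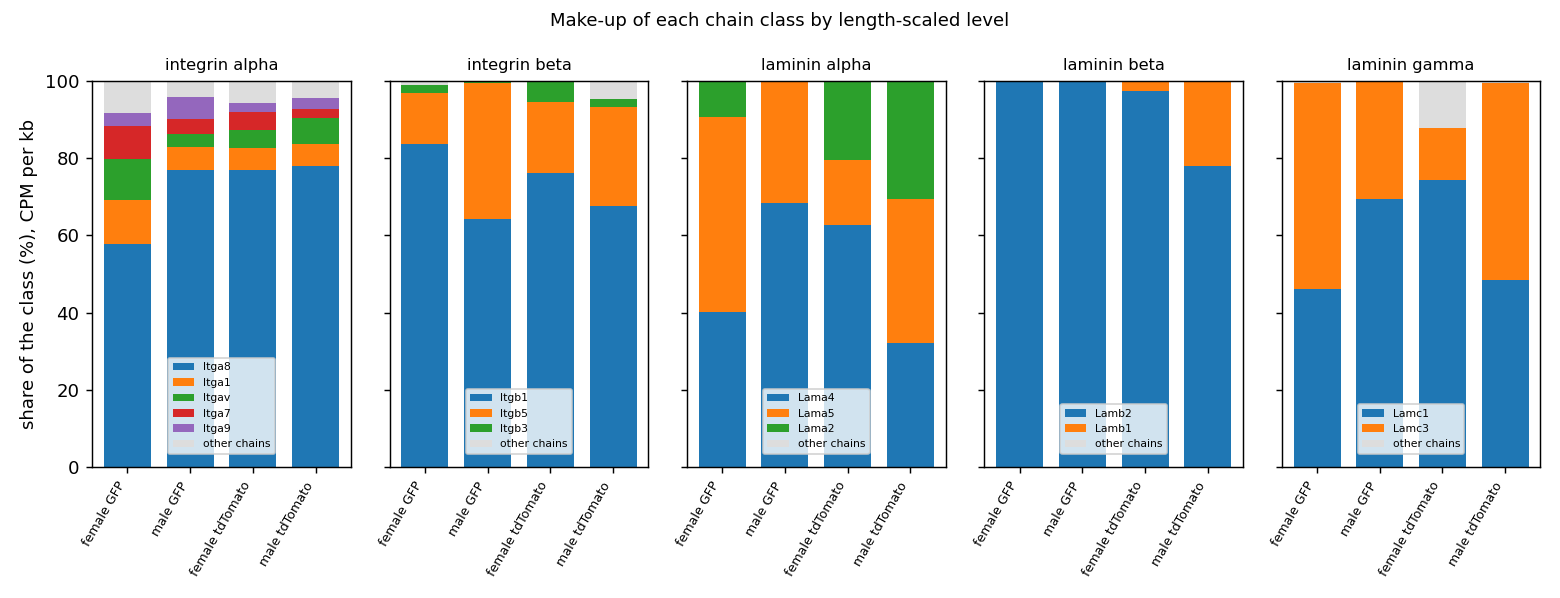
Share (%) of each chain class held by its members, from CPM divided by transcript length in kb, in the 4 libraries; tested chains that reach 5% of their class are coloured and the rest are grey. Itga8, Itgb1 and Lamb2 hold the largest share of their class in every library, while the leading laminin alpha chain differs between libraries.

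Lama2, Lamb1 and Itga4 had both GFP values below both tdTomato values (29.3% of all tested genes did). Both GFP values above both tdTomato values were found for Itga1, Itga7, Itgb1 and Lamc3 (11.5% of all tested genes). Lama2, the alpha chain of muscle and nerve basement membranes, measured 11.96 CPM (female) and 0.106 CPM (male, 1 count) in the GFP sorts, against 49.2 and 83.1 CPM in the tdTomato sorts. GFP was lower by 4.12-fold in the female pair (3.45 to 4.94) and by 780.5-fold in the male pair, where the single count left an interval of 139.8 to 30853. Its share of the laminin alpha chains was 9.22% and 0.0586% in GFP against 20.4% and 30.5% in tdTomato. Lamb1, the beta chain of embryonic and of many adult laminins, had 1 count (female) and 0 counts (male) in the GFP sorts, against 5.48 and 51.7 CPM in the tdTomato sorts. GFP was lower by 69.2-fold in the female pair (12.1 to 2768) and by at least 162-fold in the male pair. Itga4, a receptor chain for VCAM1 and fibronectin that leukocytes carry, had 2 counts (female) and 0 counts (male) in the GFP sorts, against 6.69 and 14.6 CPM in the tdTomato sorts. GFP was lower by 42.2-fold in the female pair, with an interval of 11.4 to 353, and the male pair gave a bound of at least 45.7-fold.

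Itga4 and Lamb1 passed the filter on low counts only through the tdTomato libraries. Having at most 3 counts in both GFP sorts was common, at 11.1% of the 15055 tested genes. Both pairs had lower summed levels of endothelial markers in GFP, and the male pair alone those of macrophages and fibroblasts. Schwann cell and melanocyte markers had higher sums in GFP in both pairs, with 2 tested markers each. The Schwann cell sums were 257 and 109 CPM in the GFP sorts, against 8.23 and 11.7 CPM in the tdTomato sorts. Those of melanocytes were 212 and 133 CPM, against 73.2 and 58.6 CPM. The 9 endothelial markers, all in the table, summed to 15.8 and 12.7 CPM in the GFP sorts, against 398 and 252 CPM in the tdTomato sorts. Pecam1 gave most of both GFP sums, at 15.2 and 11.8 CPM, against 51.0 and 41.4 CPM in the tdTomato sorts. Of the endothelial markers, Kdr and Egfl7 had 0 counts in both GFP libraries, and male GFP had 0 counts of 5 more. Of 10 macrophage markers 8 were in the table, with 30.6 and 0.639 CPM in the GFP sorts, against 28.3 and 152 CPM in the tdTomato sorts. Mrc1, Lyz2, Cd68 and C1qb had 0 counts in both GFP libraries. The female GFP sum came from other markers of the list, some of which were higher there than in female tdTomato. The 7 fibroblast markers summed to 3838 and 612 CPM in the GFP sorts, against 3503 and 4320.0 CPM in the tdTomato sorts. Their median log2 ratios were -0.05 (female pair) and -3.87 (male pair). Of the 7, 2 were lower in GFP by 2-fold or more in each pair (22.9% of all tested genes were). Pdgfra, the 1 marker of the list at 0 counts in female GFP, had 4 counts in male GFP. The sum of the list was nonetheless higher in female GFP than in female tdTomato. The part of these cells in the values of Lama2, Lamb1 and Itga4 was not tested. Exons of Itga4 overlap the antisense gene Cerkl in the reference annotation, and without strand their reads cannot be told apart. Cerkl measured 49.6 and 0.106 CPM in the GFP sorts, against 1.67 and 0 CPM in the tdTomato sorts. Exons of Itga1, Itga7, Itga10, Itgav, Lama2 and Lamc3 overlap other annotated genes too, and shared reads cannot be told apart there either.

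The windows before the starts of the 3 genes are shown because these members were low in GFP together. Marks and build are as above.
Lama2, chr10:27616943-27617192, minus strand: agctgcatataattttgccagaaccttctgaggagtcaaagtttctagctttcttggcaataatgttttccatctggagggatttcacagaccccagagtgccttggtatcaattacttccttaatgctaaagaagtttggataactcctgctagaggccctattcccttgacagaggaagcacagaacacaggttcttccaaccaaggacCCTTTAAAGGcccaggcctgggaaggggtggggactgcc
Lamb1, chr12:31265043-31265292, plus strand: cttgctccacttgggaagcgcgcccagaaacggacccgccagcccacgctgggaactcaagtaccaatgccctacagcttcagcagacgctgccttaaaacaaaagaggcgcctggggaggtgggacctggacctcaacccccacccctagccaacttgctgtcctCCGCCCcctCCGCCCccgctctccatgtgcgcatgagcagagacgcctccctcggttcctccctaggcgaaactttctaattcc
Itga4, chr2:79255176-79255425, plus strand: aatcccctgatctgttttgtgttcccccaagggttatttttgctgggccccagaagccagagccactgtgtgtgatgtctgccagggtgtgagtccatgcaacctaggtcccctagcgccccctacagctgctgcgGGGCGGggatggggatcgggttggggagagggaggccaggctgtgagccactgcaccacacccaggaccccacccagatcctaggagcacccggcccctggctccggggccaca
The Lama2 window held 1 CArG box, starting at position -39 from the annotated start, and no GC box. The Lamb1 window held 2 GC boxes on the minus strand and the Itga4 window held 1, so the 3 windows shared no motif of those searched. Of the 24 member windows, 2 held a CArG box, 9 a GC box and 0 a TATAAA, while of all 32851 RefSeq windows 1.47% held a CArG box, 32.7% a GC box and 12.4% a TATAAA. These matches are letters in a window and not binding sites.

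Itgb3 is the beta chain of a vitronectin receptor and of the platelet fibrinogen receptor. It was the remaining tested chain whose GFP value was lower by 2-fold or more in each pair. It measured 24.5 CPM (female) and 4.36 CPM (male) in the GFP sorts, against 49.9 CPM (female) and 21.1 CPM (male) in the tdTomato sorts. The colours overlapped, since female GFP lay above male tdTomato, and the fold was 2.04 (1.78 to 2.34) in the female pair and 4.85 (3.49 to 6.89) in the male pair. With DESeq2's size factors the female pair was no longer 2-fold apart. Itga2b, the alpha chain that pairs with Itgb3 on platelets, had 0 counts (female) and 14.8 CPM (male) in the GFP sorts, against 1.14 and 0.432 CPM in the tdTomato sorts. Female GFP was at least 4.79-fold lower than its partner and male GFP 34.3-fold higher (15.4 to 95.03). Of 6 platelet markers 3 were in the table, with 0 and 5.86 CPM in the GFP sorts, against 17.3 and 16.4 CPM in the tdTomato sorts. Of these, Pf4 and Gp1ba were at 0 counts in either GFP sort, while Gp1bb had 0 counts (female) and 5.86 CPM (male) in the GFP sorts. Their part in these values was not tested.

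Itgb8 pairs with Itgav to release active TGF-beta from its latent complex. It measured 15.997 CPM (female) and 5.64 CPM (male) in the GFP sorts, against 0.134 CPM (female, 2 counts) and 65.9 CPM (male) in the tdTomato sorts. The tdTomato libraries thus held both the lowest and the highest value, and female GFP was 119.6-fold higher than its partner (32.7 to 994) while male GFP was 11.7-fold lower (8.85 to 15.7). Itga2b and Itgb8 were the tested chains with folds of at least 2 in opposite directions, against 19.2% of all tested genes.

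Itga2 and Itgam were each above 10 CPM in 1 library and at 7 counts or fewer in the other 3. Itga2, a collagen receptor chain of platelets and epithelia, had 14.02 CPM in female GFP and 1, 0 and 3 counts in male GFP, female tdTomato and male tdTomato. The female GFP library also had the highest summed level of the epithelial and mesothelial markers, of which 4 of 7 were in the table. The sum was 48.1 CPM there, next to 12.3 CPM in the male GFP sort and 4.61 and 11.5 CPM for tdTomato. Krt18 gave 45.7 CPM of that sum and Msln 2.45 CPM, while Epcam and Krt19 had 0 counts there. Their part in the Itga2 value was not tested. Itgam, the alpha chain of a phagocyte receptor, had 12.6 CPM in female tdTomato and 0, 2 and 7 counts in female GFP, male GFP and male tdTomato. Of the 8 macrophage markers in the table, 1 (Ptprc) had 0 counts in that female tdTomato library and the other 7 were detected, and their part in the Itgam value was not tested. Itga2 and Itgam did not pass the filter on low counts, which asks for the equivalent of 10 counts in at least 2 libraries. Of the other untested chains, Itga11, Itgad, Itgb4, Itgb6 and the epithelial laminin chains Lama3 and Lamb3 stayed at or under 6.69 CPM in all 4 libraries.

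The first test set GFP against tdTomato over the 2 suspensions, with the suspension as a block. With Benjamini-Hochberg adjustment over all 15055 tested genes, the quasi-likelihood test of edgeR called 0 of the 22 tested chains, 15 integrin and 7 laminin chains, and 0 genes in all (0.0%). It gave 1298 genes (8.62%) and 0 chains at an unadjusted p under 0.05. limma-voom called 0 genes too, with 2 chains, Itga4 and Lamb1, and 13.8% of all genes at an unadjusted p under 0.05. DESeq2 called 2 chains, Lamb1 (adjusted p = 0.0143) and Itga4 (adjusted p = 0.0429), both lower in GFP, or 9.09% of the chains against 7.36% of all tested genes called lower and 7.69% called in either direction. Lamb1 and Itga4 passed the filter on low counts only through the tdTomato libraries, so these calls are descriptions. At an unadjusted p under 0.05 DESeq2 gave 3 chains, Lamb1, Itga4 and Lama2, and 18.2% of all genes. The edgeR adjusted p was 0.648 for Lamb1 and 0.62 for Itga4, and over 11 alternatives, other tools included, the adjusted p ranged from 0.0143 to 0.838 for Lamb1 and from 0.0429 to 0.835 for Itga4. Lama2 did not pass in DESeq2 (adjusted p = 0.0909), with a range of 0.0815 to 1 over the alternatives. The 2 pairs, which differ in sex, left 1 residual degree of freedom, and a p above the threshold does not show that the colours were alike.

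By size alone, 4 of 22 tested chains (18.2%) were lower in GFP by 2-fold or more in each pair, namely Itga4, Itgb3, Lama2 and Lamb1, where 22.9% of all tested genes were. The other way, higher by 2-fold or more in each pair, was 1 chain, Lamc3 (4.55%), against 5.17% of all tested genes. Both shares lay near those of all genes. A further 8 chains (36.4%) were under 2-fold apart in both pairs, Itga1, Itga5, Itga6, Itga8, Itgav, Itgb1, Itgb5 and Lama5, against 15.9% of all tested genes. Within the female pair 9 chains were at least 2-fold apart in either direction (59.8% of all tested genes were), and within the male pair 12 (71.5%). The tested chains had median log2 ratios of -0.07 (female pair) and 0.43 (male pair), beside -0.27 and -0.998 for all tested genes. Scaling moved the medians of all genes, to -0.15 and -0.78 with DESeq2's size factors and to -0.48 and -1.20 with library totals. The medians of the chains were then 0.06 and 0.67 (size factors) and -0.29 and 0.21 (library totals), so the sign in the female pair depended on the scaling. Without the filter on low counts, over all 31 chains, they were -0.15 and 0.35, beside 0.0 (female pair) and -0.01 (male pair) for all 32706 genes. In the female pair the chains thus lay below all genes without the filter and above them with it.

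**Figure D3:**
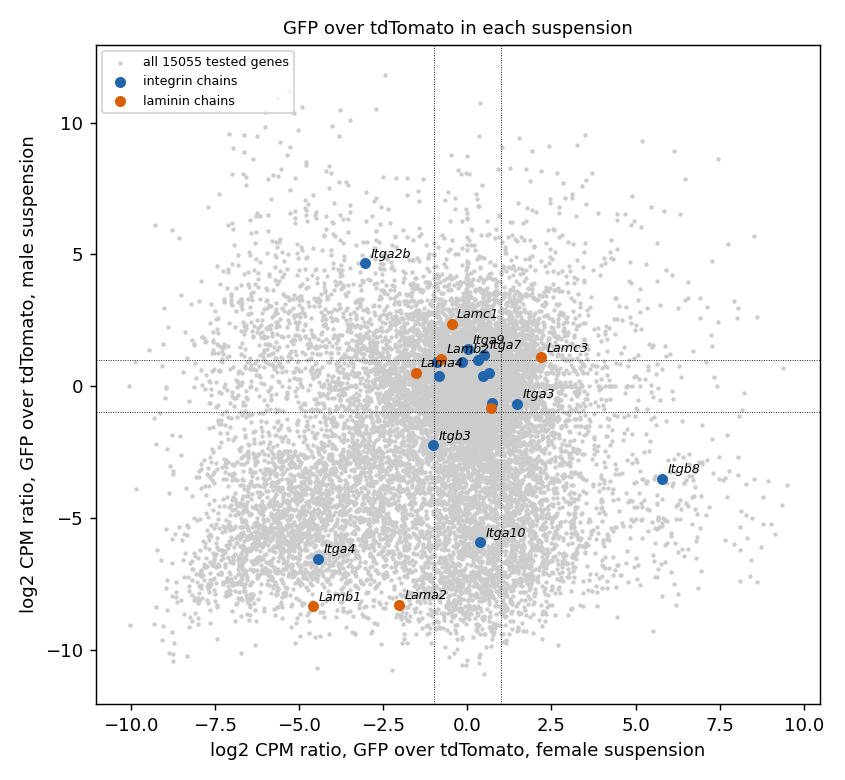
log2 CPM ratio of GFP over tdTomato (prior count 2) in the female suspension (x) and in the male suspension (y), with 15055 tested genes in grey, 15 integrin chains in blue and 7 laminin chains in orange, and dotted lines at 2-fold. Itga4, Lamb1 and Lama2 lie at the lower left, Itga2b and Itgb8 in opposite corners, and most chains near the centre.

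Male and female libraries were compared with the colour as a block. The sexes also differed in pooling, and sex and suspension cannot be told apart. edgeR called 0 of 22 chains and 0 of 15055 genes (0.0%), with 262 genes (1.74%) and 0 chains at an unadjusted p under 0.05. DESeq2 called 140 genes, 0.93% of those tested, and 0 chains, with 1 chain, Itga10 (lower in male), and 11.6% of all genes at an unadjusted p under 0.05. limma-voom called 0 genes, and at an unadjusted p under 0.05 it gave 0 chains and 3.91% of all genes. Itga5 and Itgb3 were at least 2-fold lower in male than in female libraries in both colours, 9.09% of the chains against 10.3% of all tested genes. The log2 ratios of male over female were -1.12 in GFP and -1.80 in tdTomato for Itga5, and -2.45 and -1.23 for Itgb3. Of the chains 0 were at least 2-fold higher in male libraries in both colours (6.28% of all genes), and 3, Itga2b, Itga4 and Itgb8, were so in opposite directions (13.7%). Itga4 had 2 and 0 counts in the GFP libraries, so its ratio there rests on the prior count and shows no difference between the sexes. In GFP alone 7 chains, Itga4 included, were lower and 8 higher in the male library by at least 2-fold (40.4% and 27.9% of all genes). In tdTomato alone 4 were lower and 6 higher (21.6% and 20.6%), the farthest apart being Itgb8, with a log2 ratio of 7.83, and Lamb1, with 3.20.

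The genes that link integrins to the cytoskeleton were taken from a list of 19, of which 17 were tested. edgeR called 0 of them and DESeq2 0, and in both pairs 3 were lower and 1 higher in GFP by 2-fold or more (22.9% and 5.17% of all tested genes), with median log2 ratios of -0.35 and 0.62. The most abundant were Tns1, Vcl and Fermt2. Tns1, tensin, measured 465 and 1279.9 CPM in the GFP sorts, against 780.2 and 717 CPM in the tdTomato sorts. Vcl, vinculin, measured 496 and 671 CPM in the GFP sorts, against 631 and 436 CPM in the tdTomato sorts, and Fermt2, a kindlin that activates integrins, 347 and 520.4 CPM against 396 and 251 CPM. In all 3 the male GFP library was highest. The scaffold Bcar1 had 1.11 and 0.106 CPM in the GFP sorts, against 20.1 and 23.6 CPM in the tdTomato sorts (DESeq2 adjusted p = 0.0584), and Pxn, paxillin, had 0 counts in either GFP sort, against 2.01 and 2.81 CPM in the tdTomato sorts.

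Basement membrane partners of laminin gave 0 calls of 11 tested genes by edgeR and by DESeq2, with 1 lower in GFP by 2-fold or more in each pair (22.9% of all tested genes) and medians of -0.49 and -0.71. Col4a1, a chain of the collagen IV network, measured 311 and 155 CPM in the GFP sorts, against 399 and 437 CPM in the tdTomato sorts. Col4a5, another chain, had 106 and 772 CPM in the GFP sorts, against 449.7 and 273 CPM, opposite in the pairs, and Col18a1 had 351 and 515 CPM against 459.6 and 448 CPM. Of 12 other laminin receptor genes, the dystroglycan and sarcoglycan complex and its neighbours, edgeR called 0 and DESeq2 called 1, Sgce, lower in GFP (7.36% of all tested genes were called lower). Sgce had 1.66 and 0.213 CPM in the GFP sorts, against 51.5 and 37.5 CPM in the tdTomato sorts (DESeq2 adjusted p = 0.0312). Cd9, a tetraspanin that associates with integrins, had the highest level of the list, 889.6 and 279 CPM, against 623 and 600.1 CPM. Dmd, dystrophin, measured 499 and 1004 CPM in the GFP sorts, against 457 and 467 CPM in the tdTomato sorts.

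Matrix ligands of integrins, 15 tested of a list of 18, had medians of -0.17 and -0.14. edgeR called 0 and DESeq2 called 2 lower in GFP, Tnc and Tgfbi, against 7.36% of all tested genes called lower. By size, 3 were lower and 0 higher in GFP by 2-fold or more in each pair (22.9% and 5.17% of all tested genes). Fn1, fibronectin, differed little, at 892 and 944 CPM in the GFP sorts, against 851 and 865 CPM in the tdTomato sorts. Ccn2 measured 2101 and 3477 CPM in the GFP sorts, against 2199 and 2022 CPM, and Postn, periostin, 762.1 and 1454 CPM, against 1346 and 1003 CPM. Tnc, tenascin-C, a ligand of the Itga8 and Itga9 receptors, had 0 counts and 1 count in the GFP sorts, against 54.4 and 40.1 CPM (DESeq2 adjusted p = 0.00569). Tgfbi had 0 counts (female) and 39.7 CPM (male) in the GFP sorts, against 97.0 and 182 CPM (DESeq2 adjusted p = 0.0478). The cell surface ligands of leukocyte and endothelial integrins had 6 tested members with medians of -4.10 and -4.65, and 4 of them were lower in GFP by 2-fold or more in each pair (22.9% of all tested genes were). edgeR called 0 and DESeq2 called 3, Icam2, F11r and Jam2, against 7.36% of all tested genes called lower. These 3 had 5 counts or fewer in both GFP libraries and, like Tnc, passed the filter on low counts only through the tdTomato libraries, so the calls and medians are descriptions. F11r, a junction protein, had 0.158 and 0.106 CPM in the GFP sorts, against 75.8 and 48.8 CPM (DESeq2 adjusted p = 0.00505). Vcam1, the ligand of Itga4 and Itga9 receptors, measured 31.9 and 136 CPM in the GFP sorts, against 109 and 266 CPM in the tdTomato sorts. Icam1 measured 16.3 and 2.24 CPM in the GFP sorts, against 64.9 and 58.2 CPM, and Jam3 60.8 and 102.9 CPM, against 39.5 and 59.9 CPM. Endothelial cells carry Icam2, F11r and Jam2, the endothelial sums given above moved with them, and the part of those cells was not tested.

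**Figure D4:**
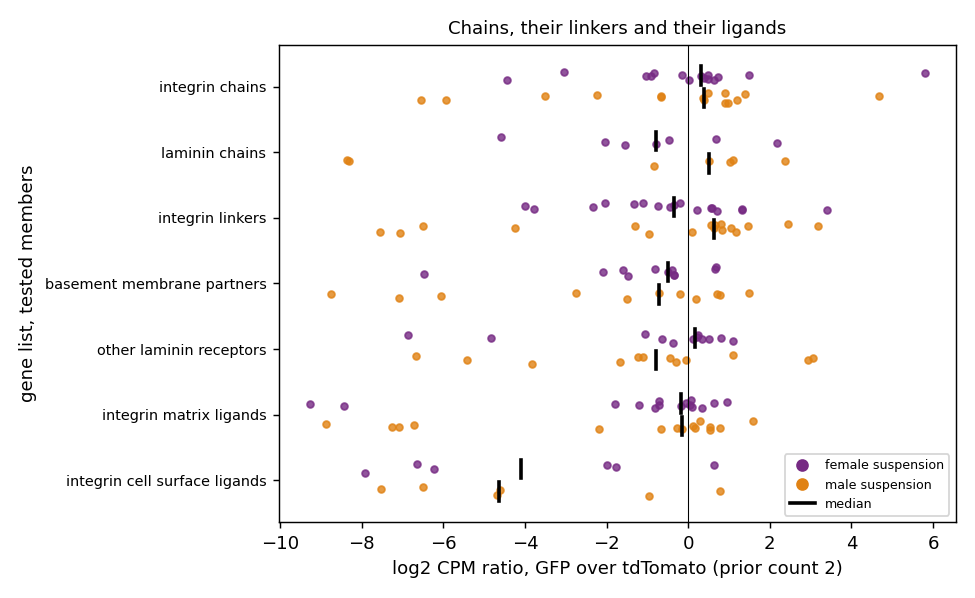
log2 CPM ratio of GFP over tdTomato for the tested integrin and laminin chains and the tested genes of the 5 partner lists, with 1 point per gene for the female suspension (purple, upper row) and the male suspension (orange, lower row) and black bars at the medians. Of the lists plotted, the cell surface ligands lie farthest left, with medians of -4.10 and -4.65.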

How the data were processed

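RNA of the 4 sorts was made into libraries with SMART-Seq v4, whose reads carry no strand, per the labels' protocols. The values are the authors' estimated counts of reads per gene, also called expected counts, as deposited. The submitters' processing notes name fastp, HISAT2, StringTie and build GRCm39, with no versions, and what did the counting was not given in the sources used. Counts were rounded to whole numbers. Symbols and transcript lengths came from GENCODE's annotation of build GRCm38, matched by Ensembl identifier for 76.5% of genes. Its coordinates served to find genes that overlap the chains, while the windows shown have RefSeq coordinates.

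Tests used edgeR 4.0.16 in R 4.3.3 (TMM, filterByExpr with a minimum count of 10, quasi-likelihood F test, Benjamini-Hochberg at 0.05 over all genes). DESeq2 1.42.0, limma-voom (limma 3.58.1), other scalings, filters, prior counts and single libraries left out were alternatives. The GFP and tdTomato libraries of a sex are sorts of 1 suspension, hence the block. Deviations from the colour means correlated at 0.0546 within suspensions. With the block, the p-values of both comparisons rest on how far the colour difference disagreed between the 2 suspensions, with information shared between genes. No sex and colour had a replicate, so they measure no spread between animals. Single folds have no prior count and an exact 95% binomial interval, and against 0 counts they are bounds at 3 counts. log2 ratios have a prior count of 2. Intervals cover counting error only, since PCR reads carry no molecular identifiers.

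Members and lists were chosen with earlier results of these data known. Every chain could be named, with full values from 10 CPM in a library, and from each partner list the 3 most abundant tested genes and those 4-fold apart in both pairs. Of 143 list genes 16 were not analysed here. A few withheld genes are left unnamed, but sums, shares and counts hold them.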

Additional observations from a re-analysis of the deposited data

Results flagged for a closer look

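Both chains given here had folds of at least 2 in opposite directions in the female and male suspensions. The difference between the suspensions was not tested, since each rests on 1 library per sex and colour, and 19.2% of all tested genes showed such opposite folds. Itgb8 had log2 ratios of GFP over tdTomato of 5.79 (female pair) and -3.51 (male pair). Itga2b had -3.04 (female pair, with 0 counts in GFP) and 4.67 (male pair).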

How the results depend on the processing

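DESeq2 in place of edgeR called 1157 genes and 2 chains between the colours and 140 genes between the sexes, and with no filter on low counts edgeR called 2 genes between the sexes. Without the replicate block, edgeR called 0 genes and 0 chains in both comparisons; the other tools were not run without it. With any 1 library left out (which also removes the block and leaves a lone library that is assumed to vary like the others), 0 genes and 0 chains were called in either comparison. Chains at least 2-fold higher in GFP in both pairs numbered 0 with library totals, 0 at 4-fold and 2 with no filter. With 1 GFP library left out and so a single pair, an alternative chosen after seeing the data, 3 to 6 chains were 2-fold higher and 6 lower. Of 44 ratios of single chains, only Itga9 in the female pair changed sign with another scaling or prior count, from 0.01 to -0.21 on the log2 scale with library totals. Depth limits the chains with few counts, and folds against 0 to 3 counts rest on wide intervals or bounds.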

Other observations

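The values of a colour are given with female first. All 31 chains together took 0.283% (female) and 0.433% (male) of the counts of the GFP sorts, against 0.387% in both tdTomato sorts. The 5 pericyte markers summed to 546 and 2146 CPM in the GFP sorts, against 829 and 595 CPM in the tdTomato sorts. Rgs5 gave most of each GFP sum, 333 and 1689.9 CPM, while Notch3 had 0 counts in both GFP libraries.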
